A study of Mus musculus with 12 samples.

Results

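A set of 10 genes of the contractile and stress-fibre actin machinery was followed in the nucleus pulposus of mice with an Opa1 deletion. They were taken by gene symbol from a table of 32285 genes: the contractile genes Acta2, Tagln, Myl9 and Cnn1, the tropomyosins Tpm1, Tpm2, Tpm3 and Tpm4, and the alpha-actinins Actn1 and Actn4. All 10 passed the filter on low counts, as 10 of the 15229 genes tested. The rule went by symbol, and the 10 genes were picked with earlier results of these data known.

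The nucleus pulposus is the soft, water-rich centre of each intervertebral disc. It was dissected under a microscope from the caudal discs of 12-month-old mice on a C57BL/6-129/SvEv background. In 6 Opa1cKO mice, Opa1, an inner-membrane fusion GTPase of mitochondria, was deleted at 3 months with AcanCre, a Cre that tamoxifen switches on and that is driven from the aggrecan locus, so that disc compartments and cartilage lost the gene, and the mice were aged for 9 more months. The 6 WT mice received the same tamoxifen, 100 mg/kg on 3 consecutive days. Each library came from 1 mouse, and whether WT mice carried the floxed allele or the Cre is not given in the labels. The comparison asks which transcripts differ between the genotypes in this tissue.

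Actin filaments become contractile when myosin II, switched on by phosphorylation of its regulatory light chain, pulls them against one another. Tropomyosins are coiled-coil proteins that lie along the filament and set which other proteins can bind it, and alpha-actinins cross-link neighbouring filaments and tie them to adhesion sites. Smooth muscle alpha-actin, transgelin and calponin are classical markers of contractile smooth muscle and myofibroblasts, and their genes are targets of serum response factor (SRF) and its cofactors of the myocardin family. Nucleus pulposus cells descend from the notochord and carry a cortical actin network together with stress fibres whose amount varies with loading and cell shape.

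Library totals were 37268242 to 56618266 counts in Opa1cKO and 45657321 to 53261644 in WT (exact permutation p = 0.502), so 1 CPM, a count scaled to the library total and its TMM factor, rested on about 37 to 57 reads. Opa1 itself was at 30.2 to 47.7 CPM in Opa1cKO and 69.3 to 118 CPM in WT, with no overlap (exact permutation p = 0.00216, the smallest possible with 6 against 6). In 4 libraries (Opa1cKO 4, WT 4, WT 5 and WT 6) the reads of Xist and Y-linked genes contradicted the labelled sex. The labels gave 2 females and 4 males in Opa1cKO against 4 females and 2 males in WT. The reads gave 3 and 3 against 5 and 1 in the same order. WT 5 and WT 6, the WT libraries labelled male, read as female, and WT 4, labelled female, read as male. Fits within a labelled sex therefore mix the sexes that the reads show. Main tests of single genes used labelled sex as a covariate, whereas the tests of shares within a gene family used none. Calls on the 10 genes that change with sex read from the data or without the 4 contradicted libraries are given beside the main calls. Opa1cKO 3 and Opa1cKO 6 stood farthest from the other libraries of their genotype, at a median root mean square distance of 0.733 on the log2 scale against 0.588 to 0.628 in the rest of Opa1cKO and 0.573 to 0.636 in WT. In bulk tissue, a change in RNA per cell and a change in the number of cells that express a gene cannot be told apart.

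Sequence upstream of 3 genes is shown because 2 of them passed the test in opposite directions and the third, Myl9, stood out in other ways. Myl9 had the largest fold change of the 10 and held the only match to the strict SRF element, defined below, among the windows searched. Windows run from 250 bases before to 50 bases after the annotated start (RefSeq, GRCm38.p6), 5′ to 3′ on the gene's strand. Capitals mark matches on either strand to the CArG box, the element bound by SRF, or to the GC box GGGCGG, which binds Sp family factors. The CArG box was searched in its strict form alone, CCWWWWWWGG, where W is A or T.
Actn1 promoter, chr12:80260314-80260613, minus strand: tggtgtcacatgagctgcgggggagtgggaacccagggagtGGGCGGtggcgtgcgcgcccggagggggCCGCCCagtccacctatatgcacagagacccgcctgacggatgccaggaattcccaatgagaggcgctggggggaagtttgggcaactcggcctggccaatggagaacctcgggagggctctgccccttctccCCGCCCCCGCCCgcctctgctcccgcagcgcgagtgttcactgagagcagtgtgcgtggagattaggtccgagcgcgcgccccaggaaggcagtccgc
Tpm2 promoter, chr4:43523505-43523804, minus strand: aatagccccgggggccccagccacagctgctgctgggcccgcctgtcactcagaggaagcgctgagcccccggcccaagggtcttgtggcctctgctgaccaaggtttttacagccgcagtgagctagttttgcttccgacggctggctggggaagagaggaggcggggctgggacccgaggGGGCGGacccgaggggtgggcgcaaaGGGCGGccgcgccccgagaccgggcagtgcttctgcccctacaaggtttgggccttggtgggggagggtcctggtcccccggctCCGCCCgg
Myl9 promoter, chr2:156775214-156775513, plus strand: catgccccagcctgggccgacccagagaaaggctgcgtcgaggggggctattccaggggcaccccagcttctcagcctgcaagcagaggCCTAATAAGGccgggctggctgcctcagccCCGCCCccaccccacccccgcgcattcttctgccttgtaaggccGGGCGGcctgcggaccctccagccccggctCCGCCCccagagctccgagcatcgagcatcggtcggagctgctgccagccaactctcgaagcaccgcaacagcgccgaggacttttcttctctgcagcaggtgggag

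The Actn1 window held 4 GC boxes and the Tpm2 window 3, with a GC content of 68.3% and 70.3%. In the Myl9 window a CArG box began 161 bases before the start, upstream of 3 GC boxes that began 131, 87 and 57 bases before it. Windows covered 9 of the 10 genes, all but Tagln, and Tpm3 had 2, which made 10 windows. A strict CArG box lay in 1 of the 10, against 1.63% of 32851 mouse windows of 300 bases. Forms with a G or C in the core were not searched, so the other windows may still hold an SRF element. GC boxes lay in 7 of the 10, against 35.7% of all windows. The muscle-CAT element CATTCC, bound by TEAD factors, lay in 3 of the 10 (Actn4, Tpm1 and Acta2), against 14.7%, and the TATA box TATAAA in 0 of the 10, against 13.6%. These matches describe letters in a window and no binding was measured.

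Of the 10 genes, Actn1 passed the test as higher in Opa1cKO and Tpm2 as lower, and the other 8 did not pass. Over all 15229 tested genes, 10.2% were called, 5.1% as higher and 5.13% as lower (edgeR quasi-likelihood test, Benjamini-Hochberg adjusted p below 0.05), and 2 of 10 is near that background. CPM ranges of the genotypes overlapped for every one of the 10 genes, and they were separate for 6.41% of all tested genes. With only 10 genes, these shares cannot be told apart. The median log2 fold change over all tested genes was 0.013.

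**Figure D1:**
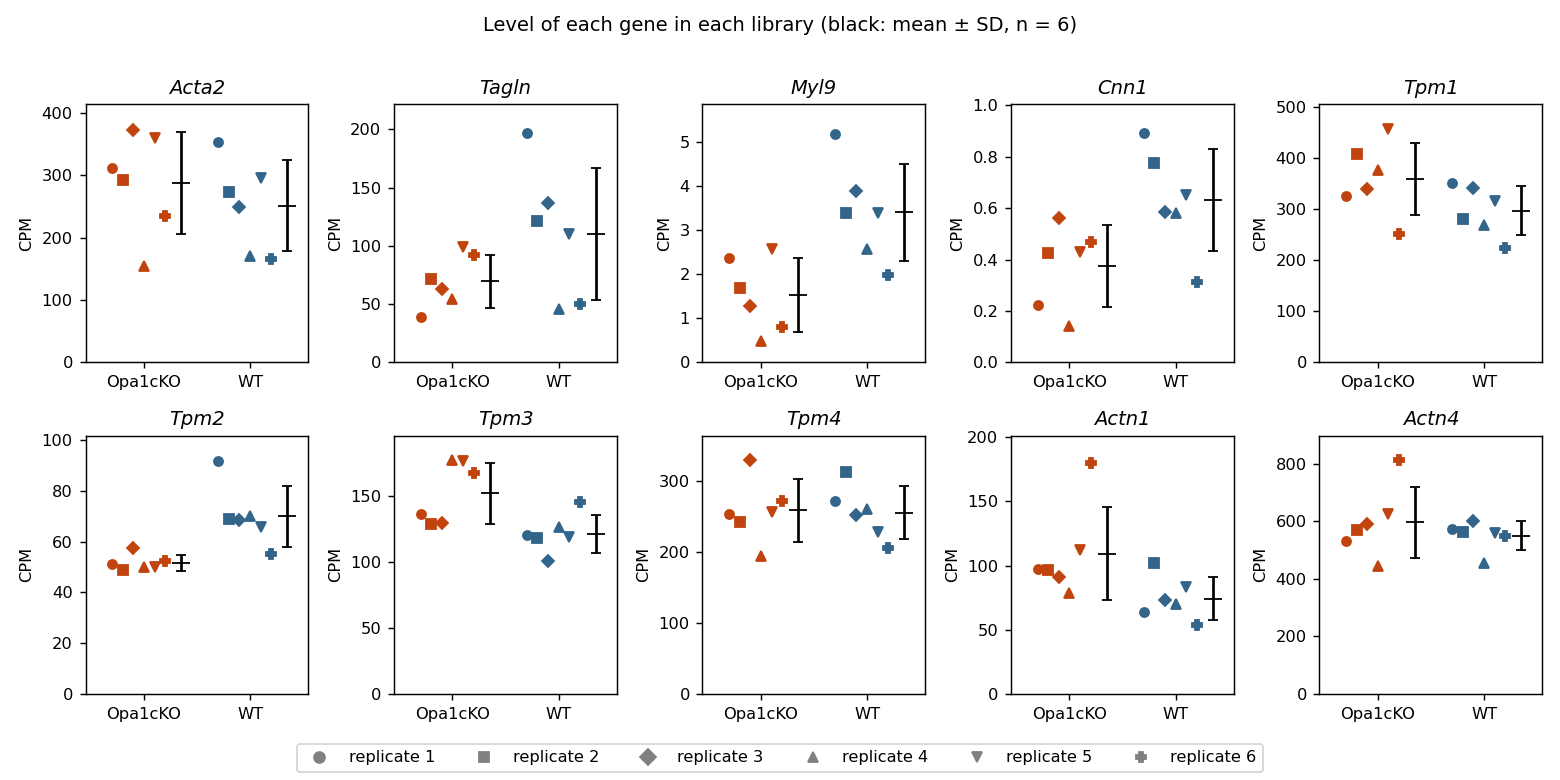
Level of each of the 10 genes in CPM (linear axis from 0) in each library, Opa1cKO left of WT, with marker shapes for the replicate numbers and black bars for mean ± SD (n = 6 libraries per genotype). Tpm2 sits between 48.8 and 57.7 CPM in all Opa1cKO libraries and between 55.2 and 92 CPM in WT libraries, and Actn1 reaches 179.7 CPM in Opa1cKO 6.

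The contractile genes differed widely in level, and 0 of the 4 passed the edgeR test. Myl9 was the 1 gene of these with an unadjusted p below 0.05, and the 1 that DESeq2 called. Acta2 (ENSMUSG00000035783, chromosome 19, 34241090 to 34255590, minus strand, mm10), which encodes smooth muscle alpha-actin, had 154 CPM at the lowest, 302 at the median and 372 at the highest in Opa1cKO, against 166, 261 and 353 CPM in WT. The 2 genotypes spanned nearly the same range, and both held libraries below 170 CPM. Means were 288 ± 81.8 CPM in Opa1cKO and 251 ± 72.8 CPM in WT (SD, n = 6 each), a log2 fold change of 0.24 ± 0.25 (SE; adjusted p = 0.588, edgeR).

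Tagln (ENSMUSG00000032085, chromosome 9, 45929619 to 45936058, minus strand) encodes transgelin, or SM22 alpha, an actin-binding protein of smooth muscle. Its lowest, median and highest levels were 39.1, 67 and 99.3 CPM in Opa1cKO and 45.7, 116 and 197 CPM in WT. For Tagln, 4 WT libraries lay above every Opa1cKO library, while WT 4 and WT 6, at 45.7 and 50.2 CPM, lay among the low Opa1cKO libraries. The log2 fold change of -0.44 ± 0.32 did not pass (adjusted p = 0.423, edgeR). Tagln overlaps Pcsk7, a proprotein convertase gene on the opposite strand, which had 1085 to 1662 counts per library against 1915 to 10407 for Tagln and a log2 fold change of -0.09 (adjusted p = 0.519). Because the sources used here give no strand setting for the authors' counter, reads of the shared stretch cannot be assigned with certainty.

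Myl9 (ENSMUSG00000067818, chromosome 2, 156775420 to 156781658, plus strand), a regulatory light chain of smooth muscle and nonmuscle myosin II, was low in this tissue. It had 0.495, 1.48 and 2.56 CPM at the lowest, median and highest in Opa1cKO, against 1.99, 3.38 and 5.18 CPM in WT. For Myl9, 4 Opa1cKO libraries lay below every WT library, and Opa1cKO 1 and Opa1cKO 5, at 2.37 and 2.56 CPM, lay beside the lower WT libraries. Its log2 fold change of -1.02 ± 0.38 was the largest of the 10 in size and did not pass (adjusted p = 0.108, edgeR). It passed in 3 of 31 alternatives, among them the fit without the sex covariate (-1.15, adjusted p = 0.0449) and DESeq2 (-1.02, adjusted p = 0.0412).

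Cnn1 (ENSMUSG00000001349, chromosome 9, 22099216 to 22109630, plus strand), the calponin of smooth muscle that restrains actomyosin ATPase, was the lowest of the 10, with 6 to 47 counts per library. Levels were 0.141 to 0.563 CPM with a median of 0.428 in Opa1cKO and 0.314 to 0.891 CPM with a median of 0.618 in WT. For Cnn1, 5 of the 6 WT libraries lay above all 6 Opa1cKO libraries, WT 6 being the exception, and the log2 fold change of -0.57 ± 0.37 did not pass (adjusted p = 0.363, edgeR).

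Among the tropomyosins, Tpm2 was lower in Opa1cKO and Tpm1, Tpm3 and Tpm4 did not pass the test. Tpm2 (ENSMUSG00000028464, chromosome 4, 43514711 to 43523765, minus strand) encodes beta-tropomyosin, best known from striated and smooth muscle, and its promoter window is the second of those above. It had 48.8, 50.6 and 57.7 CPM at the lowest, median and highest in Opa1cKO, against 55.2, 68.8 and 92 CPM in WT. For Tpm2, 5 Opa1cKO libraries lay below every WT library, and Opa1cKO 3, at 57.7 CPM, lay above WT 6 alone, at 55.2 CPM. Means were 51.7 ± 3.2 CPM in Opa1cKO and 70.1 ± 12 CPM in WT. The fit, which adjusts for labelled sex, gave a log2 fold change of -0.39 ± 0.11, a fitted ratio of 0.766 (adjusted p = 0.032, edgeR). Spread between mice was narrow in Opa1cKO, with a coefficient of variation of 6.19%, against 17.1% in WT.

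The Tpm2 value kept its sign in all 31 alternatives and passed in 21 of them, between -0.58 and -0.21 on the log2 scale. It passed with sex taken from the reads (-0.45, adjusted p = 0.018), and not without the 4 libraries whose reads contradict their labels (-0.58, adjusted p = 0.0883). Leaving out WT 5, Opa1cKO 4, Opa1cKO 5 or Opa1cKO 6 each ended the call, at adjusted p = 0.0773, 0.0542, 0.0845 and 0.114, with log2 fold changes of -0.39, -0.38, -0.33 and -0.35. Within labelled females the log2 fold change was -0.54 (adjusted p = 0.113) and within labelled males -0.21 (adjusted p = 0.408).

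Tpm3 (ENSMUSG00000027940, chromosome 3, 90072649 to 90100902, plus strand) gives slow-muscle and short cytoskeletal tropomyosins. Levels were 129, 151 and 177 CPM at the lowest, median and highest in Opa1cKO, against 100.3, 119.7 and 145 CPM in WT. WT 6 alone reached into the Opa1cKO range. With labelled sex in the fit, the log2 fold change was 0.34 ± 0.11 and did not pass (adjusted p = 0.0746, edgeR). With sex as the reads show it the value was 0.39 and passed (adjusted p = 0.0242), as it did without the 4 contradicted libraries (0.60, adjusted p = 0.0411), without WT 6 (0.45, adjusted p = 0.039) and without Opa1cKO 3 (0.37, adjusted p = 0.0449). In the fits with sex from reads and without the contradicted libraries, Tpm3 was the 1 gene of the 10 called higher, and Actn1 was not called. The retrogene Tpm3-rs7 does not overlap Tpm3 in position but could share its reads through similar sequence. It had 11 to 43 counts per library against 4621 to 7515 for Tpm3.

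Tpm1 (ENSMUSG00000032366, chromosome 9, 67022590 to 67049406, minus strand), the alpha-tropomyosin gene whose isoforms serve muscle and stress fibres alike, had 252, 359 and 456 CPM at the lowest, median and highest in Opa1cKO, against 224, 298 and 351 CPM in WT. For Tpm1, 3 Opa1cKO libraries lay above every WT library, and Opa1cKO 6, at 252 CPM, lay below 5 of the 6 WT libraries. The log2 fold change of 0.31 ± 0.15 did not pass (adjusted p = 0.228), and it passed in 1 of 31 alternatives, without Opa1cKO 6 (0.48, adjusted p = 0.0409, edgeR).

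Tpm4 (ENSMUSG00000031799, chromosome 8, 72134975 to 72153142, plus strand), which encodes a cytoskeletal tropomyosin, had 194, 256 and 330.4 CPM at the lowest, median and highest in Opa1cKO and 206, 257 and 313 CPM in WT. The genotypes lay on top of each other, at a log2 fold change of 0.09 ± 0.13 (adjusted p = 0.706, edgeR). With sex from the reads its sign turned, at -0.034.

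Of the alpha-actinins, Actn1 was higher in Opa1cKO and Actn4 did not pass. Actn1 (ENSMUSG00000015143, chromosome 12, 80167547 to 80260371, minus strand), a nonmuscle cross-linker concentrated in stress fibres and focal adhesions, had 78.3, 96.9 and 179.7 CPM at the lowest, median and highest in Opa1cKO, against 53.3, 71.4 and 102 CPM in WT. All 6 Opa1cKO libraries lay above 4 of the WT libraries, and WT 2 and WT 5, at 102 and 83.4 CPM, reached into the Opa1cKO range. Means were 109 ± 36.2 CPM in Opa1cKO and 74.2 ± 16.9 CPM in WT. Adjusted for labelled sex, the log2 fold change was 0.67 ± 0.17, a fitted ratio of 1.59 (adjusted p = 0.0257, edgeR).

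Opa1cKO 6, at 179.7 CPM, carried part of the Actn1 difference: without it the log2 fold change was 0.46 and did not pass (adjusted p = 0.109). Without WT 6, the lowest WT library, it was 0.61 (adjusted p = 0.0795). The sign held in all 31 alternatives, with log2 fold changes of 0.42 to 0.92, and the test passed in 21 of them. It did not pass without the sex covariate (0.56, adjusted p = 0.0769), with sex from reads (0.64, adjusted p = 0.061) or without the contradicted libraries (0.87, adjusted p = 0.0815), nor within labelled females (0.92, adjusted p = 0.0952) or labelled males (0.42, adjusted p = 0.276).

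Actn4 (ENSMUSG00000054808, chromosome 7, 28893248 to 28962340, minus strand), the nonmuscle alpha-actinin of the cell cortex, had 445, 582 and 812 CPM at the lowest, median and highest in Opa1cKO, against 455, 562 and 600.3 CPM in WT. Opa1cKO 5 and Opa1cKO 6, at 624 and 812 CPM, lay above all WT libraries, while Opa1cKO 4, at 445 CPM, lay below all of them. The log2 fold change was 0.17 ± 0.12 (adjusted p = 0.41, edgeR). Opa1cKO 6 thus held the highest level of both alpha-actinins.

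**Figure D2:**
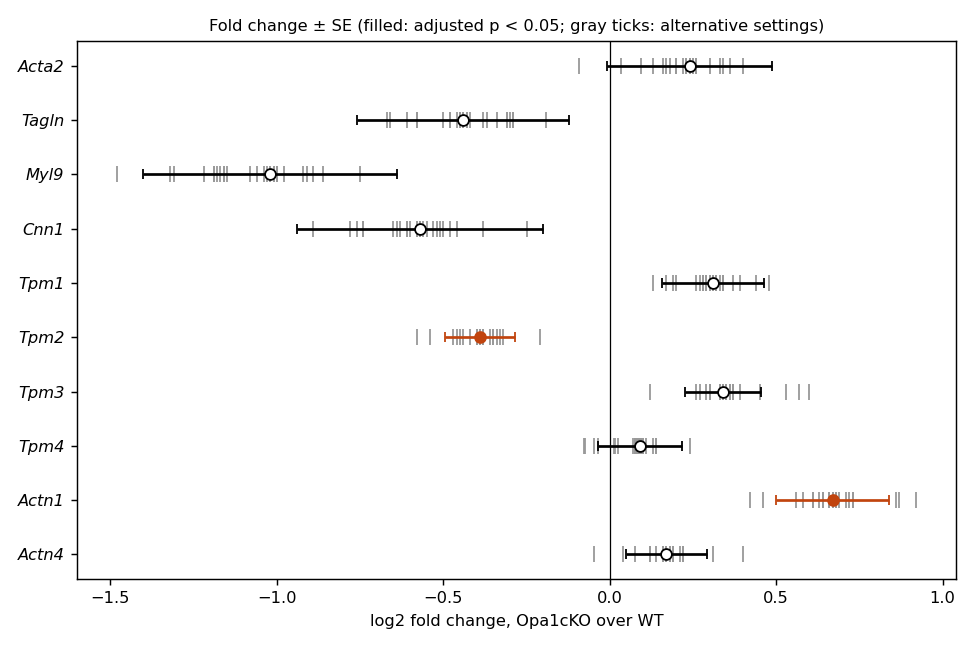
Log2 fold change, Opa1cKO over WT, of each of the 10 genes with its standard error, filled where the adjusted p is below 0.05, and gray ticks for the values under up to 31 alternative settings. Tpm2 (-0.39) and Actn1 (0.67) are filled, ticks of both stay on their side of 0, and ticks of Acta2, Tpm4 and Actn4 cross it.

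Genes can be set against one another only per unit length, for which the deposited TPM values were used. By mean TPM the order in Opa1cKO was Acta2 (602), Actn4 (450.3), Tpm4 (279), Tpm1 (255), Tagln (162), Tpm3 (116), Actn1 (91.6), Tpm2 (81.9), Myl9 (6.06) and Cnn1 (0.633). In WT it was Acta2 (517), Actn4 (408), Tpm4 (273), Tagln (249), Tpm1 (208), Tpm2 (109), Tpm3 (90.9), Actn1 (61.2), Myl9 (13.2) and Cnn1 (1.05). The ends of the order were the same in both genotypes, with Acta2 first and Myl9 and Cnn1 last, and Tpm2 stood above Tpm3 and Actn1 in WT and below both in Opa1cKO. Several neighbours did not differ beyond their spread: Tpm4 exceeded the gene next below it in 3 of 6 libraries of each genotype, and in Opa1cKO Actn1 exceeded Tpm2 in 3 of 6. By mean TPM the cytoplasmic actins stood above all 10, although Actg1 exceeded Acta2 in 4 of 6 Opa1cKO libraries, with Actb at 4958 TPM in Opa1cKO and 5005 TPM in WT and Actg1 at 749 and 809 TPM in the same order of genotypes.

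The share of each tropomyosin in the summed TPM of Tpm1 to Tpm4 does not depend on how libraries were scaled. Tpm2 made up 11.2% ± 0.884 of tropomyosin TPM in Opa1cKO and 16.0% ± 1.4 in WT (SD, n = 6 each). All 6 Opa1cKO libraries, at 9.74% to 12.1%, lay below all 6 WT libraries, at 14.9% to 18.7%. The difference of -4.81 percentage points gave an exact permutation p = 0.00216, the smallest possible (two-sided, without a sex covariate). Adjusted over the 6 shares tested, that permutation p was 0.013. The difference was -4.28 to -5.05 points, at an adjusted p of 0.013, whichever single library was left out. With CPM in place of TPM it was -3.06 points (adjusted p = 0.013), and with medians in place of means -4.04 points, which did not pass (adjusted p = 0.0779, exact permutation test). Without the 4 contradicted libraries it was -5.18 points, with complete separation and an exact permutation p = 0.0179, the smallest 5 against 3 allow, which after adjustment is 0.107.

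The other shares did not pass after adjustment. Tpm1 held 34.8% ± 5.62 of tropomyosin TPM in Opa1cKO and 30.5% ± 3.33 in WT, and Tpm3 held 15.9% ± 2.76 and 13.5% ± 2.9 in the same order (exact permutation p = 0.134 and 0.18, adjusted p = 0.262 for both). Tpm4 held 38.1% ± 5.65 in Opa1cKO and 39.9% ± 3.3 in WT (exact permutation p = 0.513). Actn1 held 16.6% ± 1.69 of the summed Actn1 and Actn4 TPM in Opa1cKO and 13.0% ± 2.61 in WT, a difference of 3.64 points (exact permutation p = 0.0195, adjusted p = 0.0584). Within that share Opa1cKO 6 was again the highest, at 19.7%, with the others of its genotype at 14.6% to 16.8%. WT 2 was the highest WT library, at 16.7%, and without it the difference was 4.38 points and passed (adjusted p = 0.013, exact permutation test). Acta2 made up 9.42% ± 1.77 of the summed Acta2, Actb and Actg1 TPM in Opa1cKO and 8.12% ± 1.79 in WT (exact permutation p = 0.219).

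**Figure D3:**
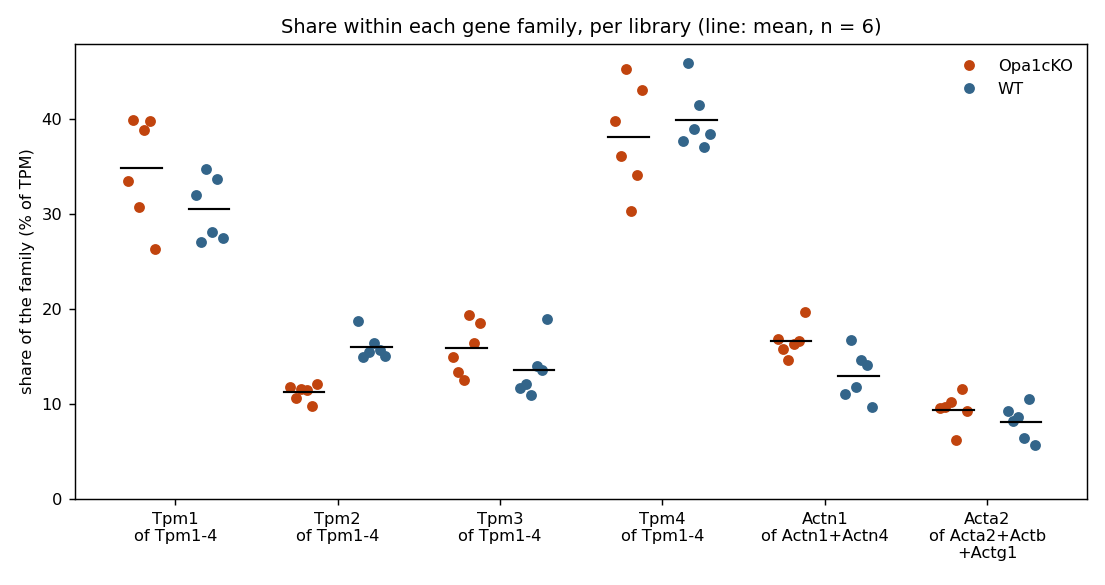
Share of each gene in its family's summed TPM, in percent (axis from 0), for each library, Opa1cKO left of WT, with a line at the mean of 6 libraries. The Tpm2 shares of the genotypes are separate, at 9.74% to 12.1% in Opa1cKO and 14.9% to 18.7% in WT, and the other 5 shares overlap.

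Within a genotype, the genes tended to be high or low in particular libraries. In Opa1cKO, Opa1cKO 4 was the lowest library for 6 of the 10 genes (Acta2, Myl9, Cnn1, Tpm4, Actn1 and Actn4) and the highest for Tpm3, and Opa1cKO 3 was the highest for 4 (Acta2, Cnn1, Tpm2 and Tpm4). In WT, WT 1 was the highest for 6 (all 4 contractile genes, Tpm1 and Tpm2), and WT 6 was the lowest for 7 (Acta2, Myl9, Cnn1, Tpm1, Tpm2, Tpm4 and Actn1) and the highest for Tpm3. Of these libraries, Opa1cKO 4 and WT 6 are among those whose reads contradict the labelled sex. The low-count genes varied most over the 12 libraries, with a ratio of highest to lowest of 10.5 for Myl9 and 6.31 for Cnn1, but Tagln, with 1915 or more reads in every library, also spanned a ratio of 5.05. The remaining ratios ran from 1.71 for Tpm4 to 3.37 for Actn1.

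**Figure D4:**
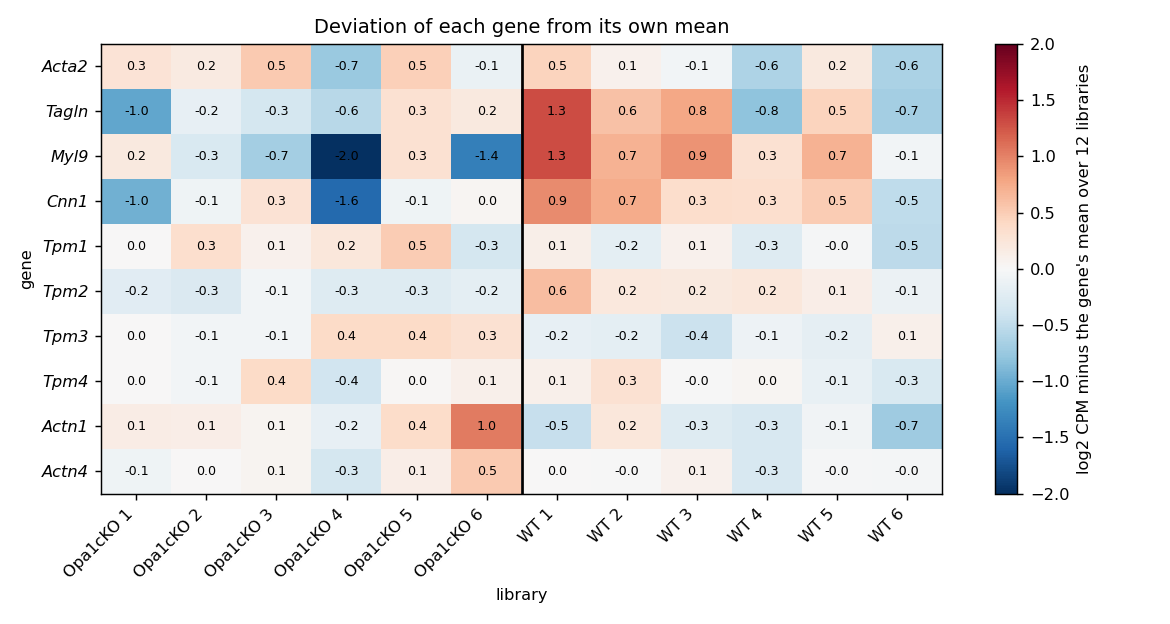
Deviation of log2 CPM from the gene's mean over 12 libraries for each of the 10 genes (rows) in each library (columns, Opa1cKO left of the line and WT right of it), red for above and blue for below. WT 1 is red for all 4 contractile genes, Opa1cKO 4 is blue for all 4, and Tpm2 is blue across Opa1cKO.

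Of the 10 genes, 3 varied by an SD above 0.5 log2 CPM, and for these the tested genes with the most similar profile were sought, by the root mean square difference of centred log2 CPM over the 12 libraries. Tagln was closest to Zfp764 (0.37), Ifit1bl2 (0.392) and Epb41l3 (0.409) among 11815 genes. Myl9 was closest to Hnmt (0.413), Trim30a (0.418) and Slc43a3 (0.425). Cnn1 was closest to N4bp2os (0.313), Aspa (0.351) and Kbtbd12 (0.362). None of these 9 is one of the 10 genes.

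Related genes were described by list, beginning with the other actins and the calponin and transgelin relatives. Neither Actb (log2 fold change -0.03, adjusted p = 0.921), Actg1 (-0.19, adjusted p = 0.441) nor Acta1, the skeletal muscle actin (-0.52, adjusted p = 0.588), passed, Actg2 had at most 2 counts in a library and Actc1 had 0 in all (edgeR). Of the 4 tested actins, 0 had an unadjusted p below 0.05 and DESeq2 called 0. Among 3 tested relatives, edgeR called 1 (33.3%, against 10.2% over all genes), Tagln2, a transgelin of nonmuscle cells, as higher. Tagln2 had 81.8 to 136 CPM with a median of 101 in Opa1cKO and 61.8 to 79.3 CPM with a median of 71.6 in WT, without overlap. Its log2 fold change was 0.61 ± 0.11 (adjusted p = 0.00392, edgeR), it passed with each of the 12 libraries left out in turn, and it lay in the opposite direction from the -0.44 of Tagln. Cnn2 (-0.79, adjusted p = 0.106) and Cnn3 (0.20, adjusted p = 0.273) did not pass in edgeR, while DESeq2 called Cnn2.

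Of 8 myosin II genes, edgeR called Mylk and Myh14 higher and 0 lower, and DESeq2 also called Myh11, with a list median of 0.03. The edgeR calls were 25% of this short list, against 10.2% over all genes. Mylk, the kinase that phosphorylates the regulatory light chain, had 123 to 171 CPM in Opa1cKO and 104 to 119 CPM in WT (log2 fold change 0.40 ± 0.09, adjusted p = 0.0131, edgeR), and the call was lost without Opa1cKO 6 (0.34, adjusted p = 0.0651) and without WT 6. Myh14, a nonmuscle heavy chain, averaged 39.6 ± 9.21 CPM in Opa1cKO and 22.1 ± 5.92 CPM in WT (0.72, adjusted p = 0.0314), and passed in 4 of 12 fits with a library left out. Myh11, the smooth muscle heavy chain, had 21.4 to 46.4 CPM in Opa1cKO and 31.1 to 101 CPM in WT and did not pass in edgeR (-0.82 ± 0.29, adjusted p = 0.1).

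Of 18 tested genes that bind or cap filaments, edgeR called Capg and Ablim1 higher and 0 lower, with a list median of 0.11, and DESeq2 also called Lima1 and Fscn1. The edgeR share of 11.1% is near the 10.2% over all genes. Capg, a gelsolin-family capping protein, averaged 89.8 ± 14.4 CPM in Opa1cKO and 58.1 ± 8.87 CPM in WT (log2 fold change 0.71, adjusted p = 0.00175, edgeR). Ablim1, an actin-binding LIM protein, averaged 561 ± 86.4 CPM in Opa1cKO and 404 ± 24.4 CPM in WT (0.53, adjusted p = 0.00376). Neither gene's ranges overlapped between genotypes, and both passed in 12 of 12 fits with a library left out.

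Of 21 focal adhesion genes, edgeR called 0 higher and 2 lower, with a list median of 0.04. This share of 9.52% is near the 10.2% over all genes, and DESeq2 called the same 2 genes, Tln2 and Parva. Tln2, a talin that couples integrins to actin, had 822 to 1043 CPM in Opa1cKO and 1091 to 1536 CPM in WT (log2 fold change -0.44 ± 0.11, adjusted p = 0.021, edgeR). Parva, the alpha-parvin of the integrin-linked kinase complex, averaged 155 ± 18.9 CPM in Opa1cKO and 209 ± 23.9 CPM in WT (-0.39, adjusted p = 0.0241). Both calls were lost without WT 5, WT 6 or Opa1cKO 5, the highest adjusted p being 0.0672 for Tln2 and 0.0823 for Parva.

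Of 11 tested transcription factors and cofactors of the SRF, MRTF and YAP group, edgeR called Myocd and Tead4 higher and 0 lower. The list median was 0.12, and the share called was 18.2% of a short list, against 10.2% over all genes. Myocd, the myocardin cofactor of SRF, had 6.54 to 10.1 CPM with a median of 8.87 in Opa1cKO and 2.83 to 5.53 CPM with a median of 4.29 in WT. The ranges did not overlap, the log2 fold change was 1.01 ± 0.20 (adjusted p = 0.00626, edgeR), and the call held in 12 of 12 fits with a library left out. Acta2, Tagln and Cnn1, textbook targets of this cofactor, did not pass and lay at 0.24, -0.44 and -0.57. Tead4, a TEAD factor partnered by YAP, averaged 8.51 ± 2.44 CPM in Opa1cKO and 5.32 ± 1.01 CPM in WT (0.78, adjusted p = 0.00977), and not without Opa1cKO 6 (0.61, adjusted p = 0.0537). None of the calls in these lists held without the 4 contradicted libraries, where 5 Opa1cKO and 3 WT libraries remained and calls over all genes fell to 188 higher and 137 lower.

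**Figure D5:**
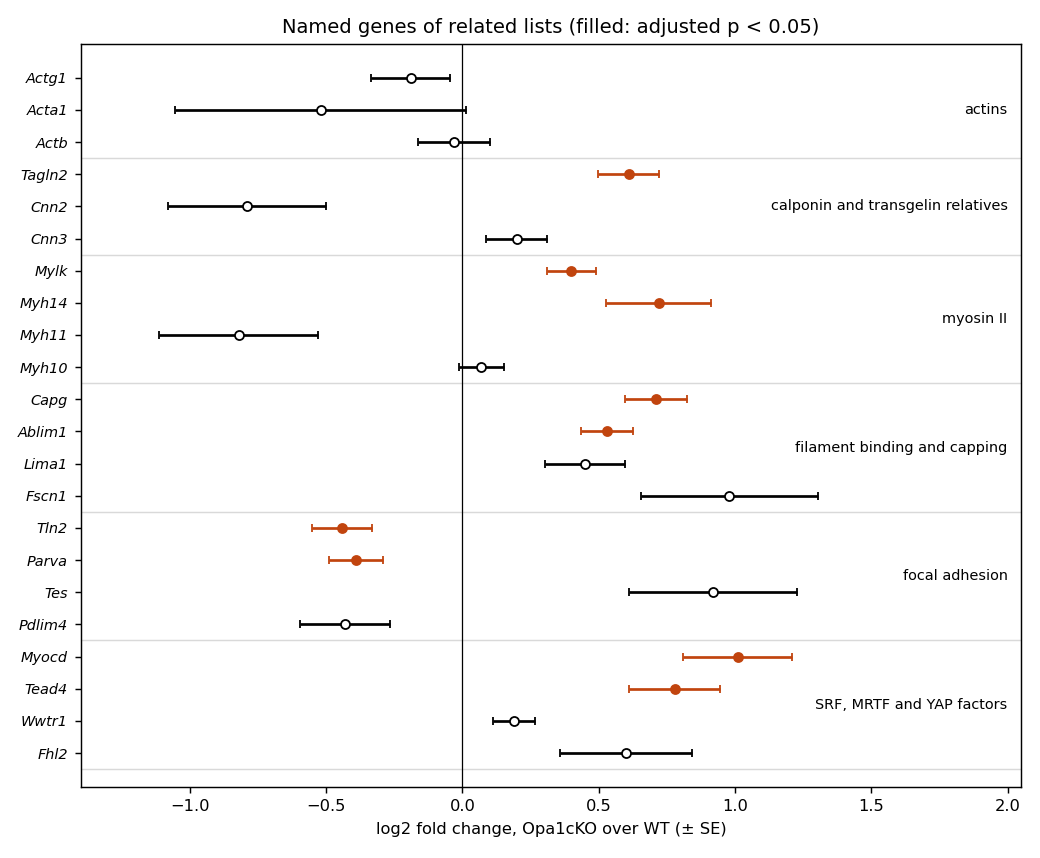
Log2 fold change, Opa1cKO over WT, with its standard error for the named genes of 6 related lists, filled where the adjusted p is below 0.05. In all, 9 genes are filled, among them Myocd at 1.01, Capg at 0.71 and Tagln2 at 0.61 to the right of 0 and Tln2 at -0.44 and Parva at -0.39 to the left.

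Since contractile genes are abundant in muscle and vessel walls, markers of those cells were read in the same libraries. Of 16 skeletal muscle markers, 11 were tested and 0 passed in edgeR, with 1 (Tcap) at an unadjusted p below 0.05 and called by DESeq2, and their level summed as CPM of the unscaled library totals was 3.51 to 51.3 CPM in Opa1cKO and 4.71 to 57.5 CPM in WT. Of 12 smooth muscle and pericyte markers, 6 were tested and edgeR called 3 higher (Myocd, Mcam and Cspg4). These were 50% of the tested markers, against 10.2% over all genes. Myh11, in the same list, lay in the other direction (-0.82, called by DESeq2 and not by edgeR). The summed level of the list was 362 to 1308 CPM in Opa1cKO and 303 to 431 CPM in WT, most of it from Cspg4, at 271 to 1220.2 CPM and 192 to 336 CPM in the same order. The log2 fold change of Cspg4 was 1.13 (adjusted p = 0.0426) and 0.50 without Opa1cKO 6 (adjusted p = 0.238, edgeR). Cspg4 passed in 2 of 12 fits with a library left out and Mcam in 7 of 12, and Mcam did not pass with sex from the reads (adjusted p = 0.159). Without the 4 contradicted libraries 0 genes of this list were called. Levels within the list were uneven. Myh11 had 910 to 5318 counts per library, whereas Lmod1, Actg2, Kcnj8 and Abcc9 had at most 6, 2, 3 and 7 counts in any library, and Rgs5 and Notch3 reached 54 and 41.

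Of 9 endothelial markers, 3 were tested and 0 passed in edgeR or DESeq2 (1 at an unadjusted p below 0.05), with sums of 6.28 to 11.2 CPM in Opa1cKO and 4.34 to 9.42 CPM in WT. Of 12 fibroblast and annulus markers, 8 were tested and 0 passed in either tool (0 at an unadjusted p below 0.05), at 269 to 557 CPM in Opa1cKO and 175 to 390.2 CPM in WT. All 10 chondrocyte markers were tested and 0 passed in either tool, at 742 to 4491 CPM in Opa1cKO and 703 to 1408 CPM in WT. Of these markers, 9 lay above 0, with a median log2 fold change of 0.80. The 3 at an unadjusted p below 0.05 were Col2a1 (1.14), Col11a2 (0.80) and Col9a2 (1.56). Col2a1 reached 3130.1 CPM in Opa1cKO 6, against 355 to 1332 CPM in the rest of Opa1cKO. Nucleus pulposus markers summed to 41368 to 56002 CPM in Opa1cKO and 46224 to 58949.9 CPM in WT. Of 12 tested, edgeR called 1 (8.33%, against 10.2% over all genes), Cdh2, or N-cadherin, as lower (-0.43, adjusted p = 0.0137). That call was lost without WT 6 (adjusted p = 0.0621, edgeR) and without the contradicted libraries. DESeq2 also called Acan (-0.53) and Foxa2 (-1.08), and edgeR called Acan without Opa1cKO 6. In the other direction, edgeR called Krt15 higher with sex from the reads. Of the 12 tested, 6 lay above 0, the list median was 0.01, and 5 had an unadjusted p below 0.05. Noto, a notochord factor, had at most 23 counts in a library. Of 9 macrophage markers, 5 were tested. Cd68 was higher (1.28, adjusted p = 0.000152) and Csf1r (-0.88, adjusted p = 0.00468) and Cd163 (-3.98, adjusted p = 4.45e-05) were lower (edgeR). The calls were 60% of the 5 tested, against 10.2% over all genes. Adgre1, C1qa, C1qb and Ptprc were too low to test, with at most 8, 4, 10 and 48 counts in any library. Without the contradicted libraries Cd68 and Cd163 were called and Csf1r was not. Erythroid markers were too low to test. Whether these cell types had a part in the values of the 10 genes was not tested.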

How the data were processed

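Counts and TPM were read for all 12 libraries, 6 Opa1cKO and 6 WT. The authors deposited whole-number read counts per gene. The submitters' processing notes name STAR 2.7.11b and the mm10 build. The sources used here do not name the program that counted reads, its gene models or its strand option. The authors also deposited TPM values, a length-scaled share of transcripts, for 32128 symbols, of which 30285 matched the count table. Counts divided by TPM gave 1 fixed length per gene, within 7.74e-10 log2 at the 99th percentile over 10880 genes. Per the labels, libraries were stranded, ribosomal RNA was depleted, and 14 PCR cycles followed from 50 ng of RNA, so copies cannot be told from molecules.

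Counts were tested with edgeR 4.0.16 in R 4.3.3, with TMM factors, a minimum count of 10 by genotype, robust glmQLFit with labelled sex and genotype as terms, and Benjamini-Hochberg adjustment over 15229 genes at 0.05. Alternatives used DESeq2 1.42.0, limma 3.58.1, other scalings, filters and thresholds, TPM with pseudocounts of 1 and 0.1, other treatments of sex, a replicate block and each library left out. Shares were compared by two-sided exact permutation of 924 splits, without a sex covariate.

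The 10 genes and all lists were chosen with earlier results of these data known. Named genes are the 10 genes, up to 4 genes per related list and 3 per marker list by p, called members of those lists, and, for genes with an SD above 0.5 log2 CPM (prior count 1), the 3 closest genes averaging at least 1 CPM, predicted and unnamed ones left out. Not every gene that met the rule is reported with its values. The results of 1 related list are not reported here. Called list members beyond the rule were named to complete small counts after their values were seen. Gene positions are from GENCODE M21, which matched 32158 of 32285 identifiers.

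Counts were also simulated for Opa1cKO against WT, with 200 of 15229 genes changed. In these, edgeR recovered 44.8% of genes changed 1.5-fold, 64.2% changed 2-fold and 89.4% changed 4-fold. Of its calls 6.38% were false, against 14.5% for DESeq2. The counts were drawn with dispersions that edgeR had fitted here, without a sex effect, wrong sex labels or an outlying library. Rates in the real data may therefore differ, and the simulation does not rank the tools on them.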

Additional observations from a re-analysis of the deposited data

Results flagged for a closer look

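In 2 of 32 groups of 6 libraries tested (10 genes and 6 shares in each genotype), 1 library lay far from the others by Dixon's criterion, which compares the gap to its nearest neighbour with the range of the group. Chance alone gives this in about 1 group in 20. The Actn1 level of 179.7 CPM in Opa1cKO 6 was far above the next Opa1cKO library, at 112 CPM, with a gap of 0.669 of the range. The Actn4 level of 455 CPM in WT 4 was far below the next WT library, at 549.5 CPM, with a gap of 0.652 of the range.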

How the results depend on the processing

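Over 31 alternatives, Acta2, Tagln, Tpm4 and Actn4 passed the test in none, and Cnn1 in none of the 30 that retained it. Against 1 gene of the 10 called higher, 0 were higher without the sex covariate, in the libraries labelled female alone, in those labelled male alone, with the replicate block and at an adjusted p below 0.01, and 2 at 0.10. Against 1 called lower (Tpm2), 2 were lower without the sex covariate and in DESeq2 (Tpm2 and Myl9), and 0 without the 4 libraries whose reads contradict their labelled sex, in either labelled sex alone, at 0.01 and in the libraries that reads show as female, an alternative added after the data were seen. With the replicate block the 1 gene called lower was Myl9 (-1.17, adjusted p = 0.0419), and Actn1 (0.67, adjusted p = 0.08) and Tpm2 (-0.38, adjusted p = 0.0772) did not pass. Correlations gave no sign that replicate numbers paired samples, although they cannot exclude a shared litter, cage or batch. Of 6 same-numbered pairs, 0 correlated above 0.1 (-0.22 to 0.04), and 0 libraries correlated best with their own number.

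Over all genes, 777 were higher and 781 lower. Calls numbered 188 and 137 without the contradicted libraries, 167 and 133 in labelled females, 161 and 258 in labelled males, 351 and 418 with the replicate block, and 228 and 326 at 0.01. Higher calls numbered 1189 in DESeq2 and 1302 at 0.10. With 1 library left out, 1 to 2 genes of the 10 were higher, 0 to 1 lower, and 323 to 1002 genes overall were higher and 496 to 1008 lower. The fewest came without Opa1cKO 6, and without WT 6 they were 463 and 510. Signs turned for Acta2 (-0.092) and Tpm4 (-0.075) in libraries that reads show as female, for Tpm4 also with sex from reads (-0.034), without the contradicted libraries (-0.078) and in labelled females (-0.047), and for Actn4 in labelled males (-0.046). None of these passed. Other scalings left the median of all genes at 0.007 to 0.024.

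The Tpm2 share difference did not pass without the contradicted libraries (-5.18 points), with medians in place of means (-4.04) or in libraries that reads show as female (-4.85). With 1 library left out, differences were 3.31 to 6.02 points for Tpm1, -5.05 to -4.28 for Tpm2, 1.61 to 3.4 for Tpm3, -3.25 to -0.258 for Tpm4, 2.98 to 4.38 for Actn1 and 0.819 to 1.93 for Acta2. The causes were not tested. Fits within 1 labelled sex hold 6 libraries, and by the reads neither subset is of 1 sex. Among labelled males, WT 5, WT 6 and Opa1cKO 4 read as female, and Opa1cKO 1, Opa1cKO 2 and Opa1cKO 3 as male. Among labelled females, WT 4 read as male. Cnn1 rests on 6 to 47 counts per library.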
